A study of Mus musculus with 20 samples.

Results

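Stage was compared among the brainstem-labelled libraries of mice whose microglia carry a mutant Braf allele: 2 end-stage mice against 3 mice aged 2 months, 5 of the 20 libraries of the series. The 5 were chosen by the brainstem label, which goes with the odd running numbers of the count columns, and by the genotype that belongs to the mouse number in the column name. The end-stage mice were M1376 and M1524 and the 2-month mice M2617, M2621 and M2624; values are given in these orders throughout. The series profiled microglia of 10 mice by bulk RNA sequencing, with 1 cortex-labelled and 1 brainstem-labelled library per mouse. By the mouse number in the column name all 5 mutants carry Braf V600E and are heterozygous at Cx3cr1, the locus of the tamoxifen-dependent Cre (Cx3cr1CreER with Braf LSL-V600E). Embryos were pulse-labelled at embryonic day 9.5 by 1 injection of 37.5 mg per kg 4-hydroxytamoxifen into the pregnant female, per the labels' protocols, which name this for the whole series. Control mice at end-stage were M1375, labelled with the Braf allele and wild type at Cx3cr1, and M1521, labelled wild type for Braf and heterozygous at Cx3cr1, and those at 2 months, M2618, M2629 and M2633, are by the same reading wild type for Braf and heterozygous at Cx3cr1. The age of the end-stage mice and the way the cells were purified are not given in the sources used here. Stage therefore differs together with age and with the individual animals, and these cannot be told apart. Sex, read from the Xist and Y-linked counts given below, also differed in part between the stages.

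Microglia are the resident macrophages of the brain and derive from yolk-sac erythro-myeloid progenitors, the cells targeted here. Braf is a kinase that activates MEK and, through it, ERK, and the V600E form is active without the usual upstream signal. ERK induces transcription factors such as those of the ETS and AP-1 families and also its own inhibitors, among them the dual-specificity phosphatases and the Sprouty and Spred proteins. Histiocytoses driven by this mutation can be accompanied by neurodegeneration that often affects the brainstem and cerebellum.

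Several labels were at odds with each other or with the data. Titles and descriptions (the latter name the count columns) gave unequal mouse numbers for 5 of 6 mice aged 2 months, and the sample records of columns M2617 and M2621 say control, while that of M2624 says mutant under both readings. Of the 3 controls aged 2 months, the sample records of columns M2618 and M2633 say mutant, and that of M2629 says control. Transcripts of a brainstem tissue list, mostly Hox genes, summed to 0.325 to 1.18 CPM (counts per 1000000 counts) in the 5 libraries and were higher in the cortex-labelled library of the same mouse in 5 of 5 mice, against the label. These sums were low, and 2 of the 13 genes had enough counts to be tested. A cortex tissue list, also low, had mixed cortex-labelled to brainstem-labelled ratios: 2.16 and 0 at end-stage and 0.129, 0.751 and 1.29 at 2 months. Xist, made from the inactive X chromosome, had 3515 and 4971 counts in the end-stage libraries and 4420 in M2621, while M2617 and M2624 had 0 and 1 and instead 1464 and 1362 counts of Y-linked genes. Library totals ran from 12.9e6 to 21.2e6 counts, so that 3 counts, the limit that a count of 0 allows, stand for 0.147 to 0.240 CPM. The 10 microglia-defining genes summed to 42529.8 and 51707 CPM at end-stage and 58679, 55185 and 62686 CPM at 2 months. Between any 2 of the 5 libraries 75 to 214 genes differed by more than 4-fold, with 134 between the 2 end-stage libraries.

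Genes were tested with edgeR's quasi-likelihood test, with Benjamini-Hochberg adjustment across 16595 genes, and an adjusted p under 0.05 counted as passing. In the brainstem-labelled mutants 8 genes (0.0482%) passed: Neat1, Coro2a, Il15ra, Firre and Dtx3 were higher at end-stage (5 genes, 0.0301%) and Pygl, Fam110a and Jun lower (3 genes, 0.0181%). In each of the 8 the 2 end-stage values lay outside the range of the 3 values at 2 months. At an unadjusted p under 0.05, 753 genes (4.54%) were higher and 964 (5.81%) lower. The end-stage libraries lay above all 3 libraries at 2 months for 2548 genes (15.4%) and below all 3 for 2436 (14.7%). With the genotypes of the sample records instead, 8 genes passed and 3 of the 8 (Jun, Neat1 and Pygl) were shared. Keeping only those 2-month mice whose genotype is the same under both readings left 1 mutant at 2 months, M2624. The calls also changed with the mice in the fit. The call count was 5 without M2617 (2 of the 8 kept), 12 without M2621 (5 kept) and 2 without M2624 (1 kept). Leaving out M1376 or M1524, or using only mice with Xist, also left 1 mouse in a stage. The call counts of such fits are not given here. With only the 2 groups compared in the fit 4 were called and 1 was kept. Over 15 alternative fits and subsets, these among them, log2 differences ran from 1.58 to 2.52 for Neat1 and 1.40 to 2.79 for Coro2a. They ran from 1.51 to 2.21 for Il15ra, 1.57 to 1.91 for Firre and 0.85 to 1.17 for Dtx3. For Pygl, Fam110a and Jun they ran from -3.67 to -2.04, -1.60 to -1.31 and -1.38 to -1.17. DESeq2 called 196 genes (76 higher, 120 lower) and limma-voom 19 (10 higher, 9 lower), each of the same 16595 tested. With sex as a covariate 32 were called, and these fits kept 8, 6 and 8.

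Neat1, the long non-coding RNA that scaffolds nuclear paraspeckles (chromosome 19, 5824708 to 5845478, minus strand, GRCm38), stood at 33 and 17 CPM at end-stage and 4.02, 7.91 and 5.19 CPM at 2 months. It rose 4.38-fold in the means (log2 difference 2.12 ± 0.31 SE, adjusted p = 0.013). The brainstem-labelled controls held 21.5 and 15.5 CPM at end-stage and 5.26, 6.53 and 4.44 CPM at 2 months, so both genotypes showed higher values at end-stage without overlap. Il15ra, the alpha chain of the interleukin-15 receptor (chromosome 2, 11705290 to 11734317, plus strand), stood at 57.5 and 39.4 against 10.5, 14.1 and 12.9 CPM. This was a rise of 3.88-fold (log2 difference 1.95 ± 0.30, adjusted p = 0.0146), and the 5 control libraries ranged from 11.8 to 22.8 CPM with the stages overlapping. Firre, an X-linked non-coding RNA with a role in nuclear organisation (chromosome X, 50555744 to 50635321, minus strand), stood at 32.2 and 40.2 against 9.51, 11.4 and 11.6 CPM. It rose 3.34-fold (log2 difference 1.74 ± 0.29, adjusted p = 0.029). M2621, at 11.4 CPM, was the single 2-month mutant with Xist, which both end-stage mutants had. Coro2a, an actin-binding coronin, stood at 35.6 and 33.3 against 10.5, 4.96 and 11 CPM (3.91-fold, log2 difference 1.97 ± 0.35, adjusted p = 0.047; chromosome 4, 46536937 to 46602202, minus strand). Dtx3, a Deltex-family ubiquitin ligase (chromosome 10, 127190378 to 127195728, minus strand), had the smallest spread of the 5, at 69.1 and 69.3 against 30.8, 32.1 and 37 CPM. It rose 2.08-fold (log2 difference 1.06 ± 0.17, adjusted p = 0.0164), beside 77.5 and 65 against 37.3, 40.3 and 41 CPM in controls. Whether reads were counted by strand is not given in the sources used here, so reads of overlapping antisense transcripts cannot be told apart from those of the named genes.

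Fam110a, which encodes a centrosome-associated protein (chromosome 2, 151969398 to 151980219, minus strand), stood at 101 and 112 CPM at end-stage and 263, 278 and 324 CPM at 2 months. It was 2.7-fold lower (log2 difference -1.44 ± 0.17, adjusted p = 0.0023), the smallest adjusted p of the comparison. Control libraries ranged from 188 to 278 CPM, so the end-stage mutants lay below all 5 controls. Jun, a subunit of the AP-1 transcription factor (chromosome 4, 95049034 to 95052222, minus strand), stood at 46.7 and 52.8 against 112, 122 and 129 CPM. It was 2.43-fold lower (log2 difference -1.28 ± 0.19, adjusted p = 0.013), while the control values were higher at end-stage (163 and 163 CPM) than at 2 months (113, 98.5 and 125 CPM). Pygl, a glycogen phosphorylase (chromosome 12, 70190811 to 70231488, minus strand), was a low transcript at 0.777 and 0.759 against 5.63, 6.93 and 3.19 CPM. It was 6.84-fold lower (log2 difference -2.77 ± 0.47, adjusted p = 0.0317), and control libraries held 7.59 and 3.37 CPM at end-stage and 14, 8.29 and 12.3 CPM at 2 months. Over 15 alternative fits and subsets, all 8 genes kept their direction. Fam110a was called in 11 of them, Jun in 9, Neat1 and Il15ra in 8 each, Dtx3 in 7, Firre and Pygl in 6 each and Coro2a in 5.

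**Figure D1:**
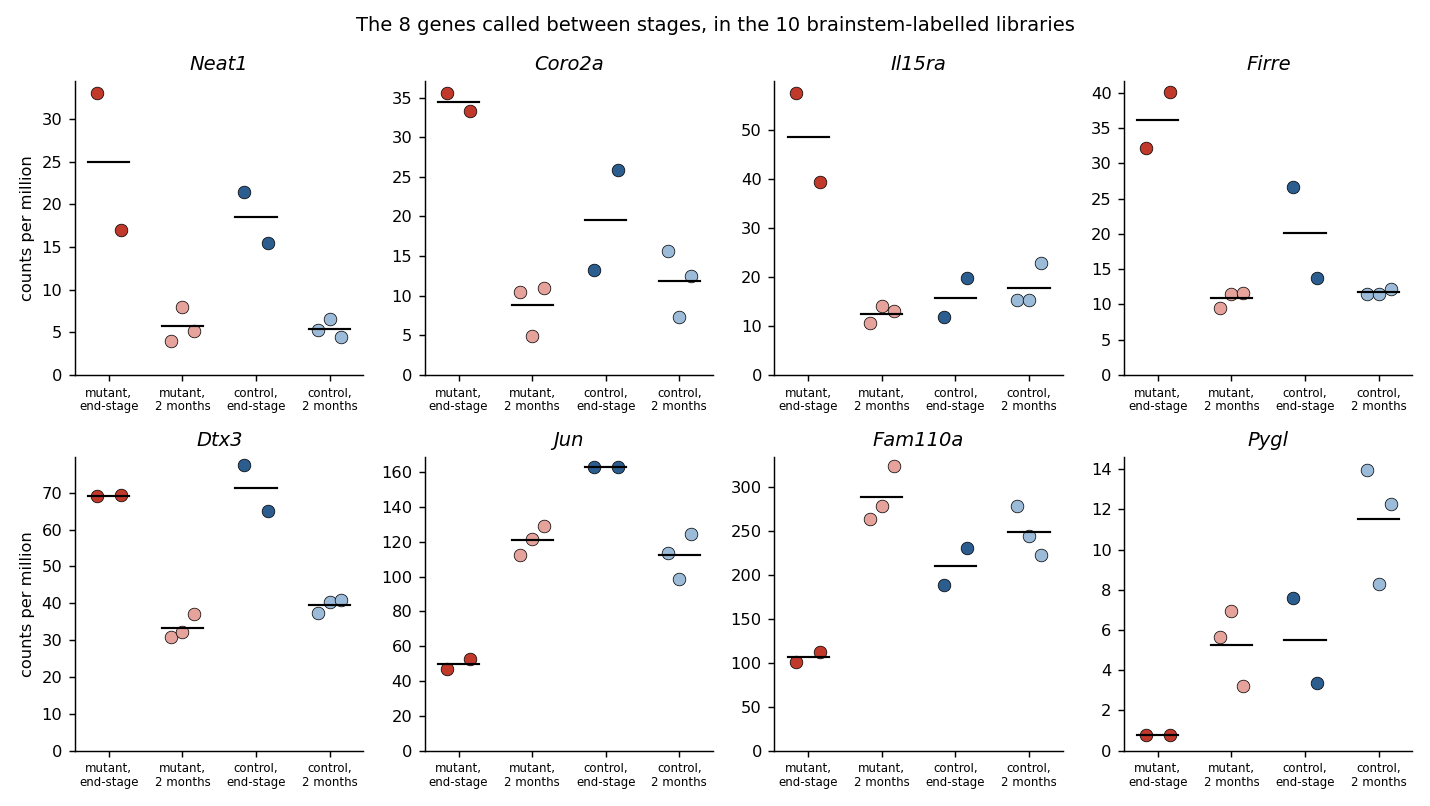
CPM (linear axis from 0) of the 8 called genes in the 10 brainstem-labelled libraries; each point is 1 mouse, and bars are group means. The end-stage mutants lie outside the 2-month mutants in every panel, and for Jun the control mice lie in the opposite order.

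RefSeq promoters (GRCm38.p6) were matched for 6 of the 8 called genes, and Neat1 and Dtx3 had none to search. The 250 bases before each start were searched on both strands for 6 motifs. The sequences below are shown because Jun is the AP-1 gene among the calls. Il15ra is shown as the only gene of the 6 searched with a match to the AP-1 letters. Capitals mark a motif match, and the strand shown is that of the gene.
Jun, chr4:95052223-95052472, minus strand: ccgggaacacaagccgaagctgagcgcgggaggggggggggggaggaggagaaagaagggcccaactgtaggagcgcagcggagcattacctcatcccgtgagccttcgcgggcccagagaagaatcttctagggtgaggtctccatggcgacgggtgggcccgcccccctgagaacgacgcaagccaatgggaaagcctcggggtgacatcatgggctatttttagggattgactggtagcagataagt
Il15ra, first start, chr2:11705043-11705292, plus strand: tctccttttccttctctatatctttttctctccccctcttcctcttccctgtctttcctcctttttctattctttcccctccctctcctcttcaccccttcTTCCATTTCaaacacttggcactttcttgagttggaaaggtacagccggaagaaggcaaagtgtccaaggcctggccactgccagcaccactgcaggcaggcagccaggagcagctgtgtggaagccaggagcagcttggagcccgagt
Il15ra, second start, chr2:11705462-11705711, plus strand: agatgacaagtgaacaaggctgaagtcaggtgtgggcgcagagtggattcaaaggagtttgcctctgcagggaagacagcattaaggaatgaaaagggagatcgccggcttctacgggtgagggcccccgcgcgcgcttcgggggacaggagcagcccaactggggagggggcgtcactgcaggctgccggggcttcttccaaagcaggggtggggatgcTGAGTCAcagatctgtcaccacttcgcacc
The Jun stretch held none of the 6 motifs and so has no capitals. Only exact letters were searched (TGANTCA for AP-1), so the stretch is not shown to lack AP-1 sites of another spelling. The first Il15ra stretch held 1 match to the interferon response element GAAANNGAA, read on the other strand, and the second held 1 match to the AP-1 letters TGANTCA, 30 bases before the start. Over all 32851 promoters, 7.13% held GAAANNGAA and 6.75% held TGANTCA. The other motifs searched were the ETS letters CCGGAAGT (2.88% of promoters), the NF-kappaB letters GGGANTTCC (1.43%), the E2F letters TTTCGCGC (0.256%) and the CLEAR E-box TCACGTGA (0.785%). None of the 6 genes searched matched these 4. One of the 2 Coro2a starts held a match to GAAANNGAA, and Fam110a, Firre and Pygl held no match. Such matches describe letters in a window and not binding.

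A further 12 genes, which did not pass, fill up to 10 named genes in each direction by smallest p among those without overlap, and stood at adjusted p = 0.0572 or 0.0679. Of these, Mrc2, an endocytic collagen receptor, stood at 55.8 and 80.8 against 28.4, 15.9 and 24.5 CPM and at 7.93 to 21.5 CPM in the 5 controls. Dna2, a nuclease and helicase of DNA repair, stood at 14.8 and 10.4 against 1.17, 2.46 and 0.719 CPM and at 0.467 to 1.81 CPM in controls. The end-stage mutants thus lay above every other brainstem-labelled library for both. Osbpl3, an oxysterol-binding protein, stood at 11.7 and 12.9 against 2.05, 2.01 and 1.44 CPM. Pvt1, a non-coding RNA beside Myc, stood at 17.9 and 21.2 against 8.34, 5.94 and 6.07 CPM. Ndst1, an enzyme of heparan sulfate modification, stood at 64.5 and 23.6 against 12.1, 14 and 5.03 CPM, with M1376 well above M1524. Among genes with lower values, Cnn2, an actin-binding calponin, stood at 29.1 and 40.6 against 98.9, 105 and 128 CPM, with controls from 34.1 to 56.1 CPM. Its end-stage mutant values therefore lay near those of the controls, and its 2-month mutant values above every control. Atp1b3, a subunit of the sodium pump, had log2 difference -0.68 ± 0.13, and Jam2, a junctional adhesion protein, -0.76 ± 0.15. Tmem173, the gene of the DNA-sensing adaptor STING, had -0.78 ± 0.15, and Cryl1, a sugar-metabolising enzyme, -1.01 ± 0.20. Sparc and P2ry13, the remaining 2, are described with the microglial genes.

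Of 15 tested genes of the RAF-MEK-ERK cascade none passed edgeR's test, and 6 were lower at an unadjusted p under 0.05 (5.81% of all genes). DESeq2 called 2 lower, Mapk3 among them, and limma-voom none. Over all 16595 genes these tools called 120 and 9 lower. Their median log2 difference was -0.32, beside 0.03 over all genes, and 9 had both end-stage values below all 3 at 2 months while 3 had them above (over all genes, 14.7% and 15.4%). Mapk3 (ERK1) stood at 140.4 and 152 against 205, 212 and 229 CPM, Map2k1 (MEK1) at 177 and 208 against 267, 305 and 284 CPM and Nras at 60 and 41.6 against 70.3, 76.3 and 76.9 CPM, each without overlap and each at adjusted p between 0.234 and 0.254. Braf itself stood at 24.5 and 15.6 against 16.6, 14.7 and 16.2 CPM with overlap (log2 difference 0.34 ± 0.51, adjusted p = 0.871); the V600E allele cannot be read from gene counts. In brainstem-labelled controls the list median was -0.06.

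Of 20 tested genes induced by ERK signalling, none passed, and the median log2 difference was -0.50 (-0.34 in controls). Values lay lower without overlap for 6 (14.7% of all genes did) and higher for 1 (15.4%). At an unadjusted p under 0.05, 4 were lower (5.81% of all genes). DESeq2 called Ccnd1 and Spry1 lower and limma-voom none (120 and 9 lower over all 16595 genes). Ccnd1, the cyclin of the G1 phase, stood at 51.7 and 53.5 CPM at end-stage and 122, 163 and 159 CPM at 2 months (log2 difference -1.49 ± 0.34, adjusted p = 0.116). Controls ranged from 45.6 to 81.4 CPM, so the 2-month mutants lay above all controls and the end-stage mutants within their range. Spry1, a Sprouty inhibitor of the pathway, stood at 44 and 34.2 against 86.2, 104 and 117 CPM (log2 difference -1.39 ± 0.35, adjusted p = 0.182), with controls from 30.7 to 85.7 CPM. Ier3, an early response gene, stood at 8.27 and 7.75 against 20.7, 26.2 and 13.8 CPM without overlap. Egr2, an early growth response factor, stood at 1.5 and 2.93 against 11.6, 5.31 and 2.79 CPM with overlap. Etv4, an ETS factor induced by ERK, lay higher, at 9.1 and 12.6 against 3.73, 2.95 and 1.76 CPM (log2 difference 1.94 ± 1.33, adjusted p = 0.657), and the 5 controls ranged from 0 to 1.24 CPM. All 5 mutants therefore lay above all 5 controls for Etv4, the end-stage pair highest. Dusp6, the cytoplasmic ERK phosphatase, stood at 916 and 1079.9 against 1072, 1332 and 1246 CPM with overlap (adjusted p = 0.724).

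**Figure D2:**
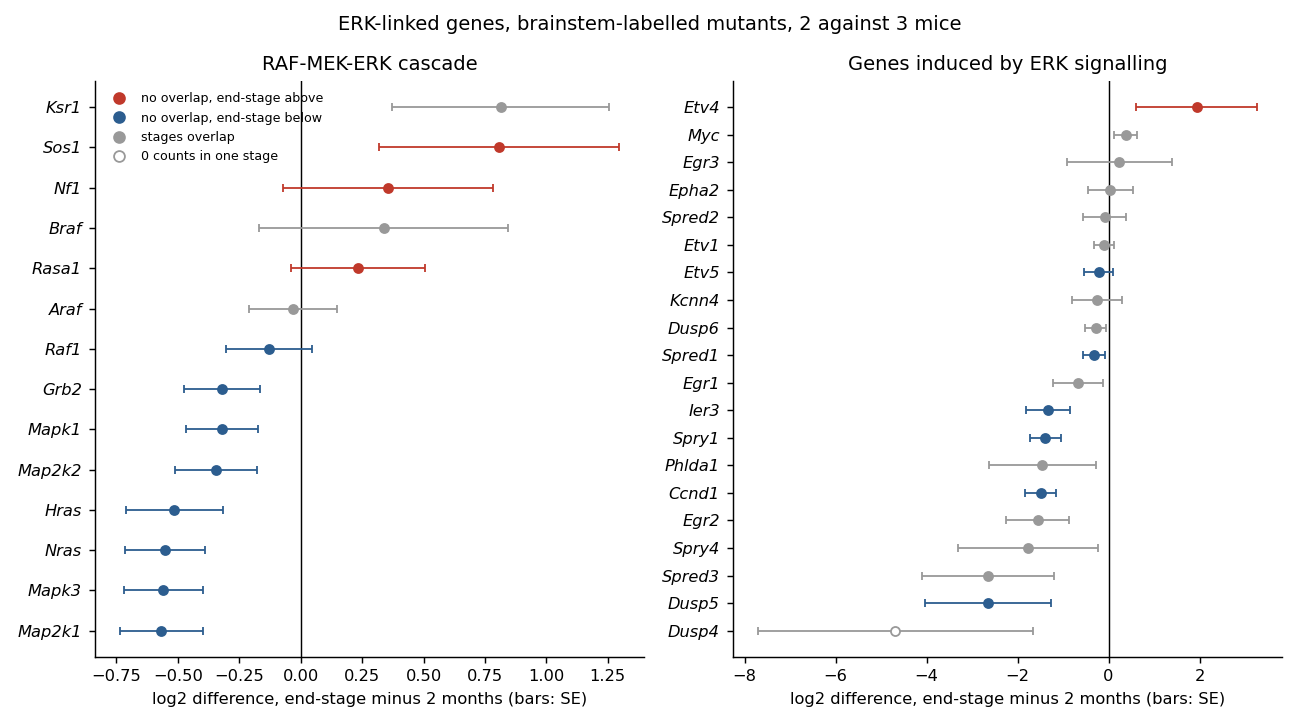
Log2 difference between stages with its SE for genes of the RAF-MEK-ERK cascade (left) and genes induced by ERK signalling (right) in brainstem-labelled mutants, 2 against 3 mice; colour gives overlap of the stages and the open point a gene with 0 counts in 1 stage. Map2k1 stands at -0.57 on the left, Etv4 stands at 1.94 on the right, and none passed the test.

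Jun was also the 1 member of 16 that passed among early genes known to respond to tissue dissociation, a list whose median log2 difference was -0.42. Jund, its AP-1 relative, stood at 45.1 and 48.2 against 88, 88.9 and 92.1 CPM (log2 difference -0.94 ± 0.19, adjusted p = 0.0679) and Ier5 at 96.1 and 144 against 228, 166 and 228 CPM (adjusted p = 0.156), both called lower by DESeq2. Btg2, an antiproliferative early gene, stood at 215 and 186 against 274, 228 and 309 CPM. All 3 lay lower at end-stage without overlap, as did 5 of the 16 genes (14.7% of all genes did). The part of tissue handling in the Jun result was not tested.

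Among 21 genes of homeostatic microglia none passed, and the median log2 difference was -0.29 (0.03 in controls). Values lay lower at end-stage without overlap for 12 (14.7% of all genes did) and higher for 2 (15.4%). At an unadjusted p under 0.05, 5 were lower and 1 higher (5.81% and 4.54% of all genes). DESeq2 called P2ry13, Fcrls and Sparc lower and limma-voom P2ry13 and Sparc (120 and 9 lower over all 16595 genes). Sparc, a secreted matricellular protein, stood at 3537 and 5038 against 7198, 8788 and 8948 CPM and P2ry13, a purinergic receptor, at 1507 and 1929.8 against 2988, 3079 and 3251 CPM (log2 differences -0.95 ± 0.18 and -0.85 ± 0.17, adjusted p = 0.0572 each). Fcrls, an Fc receptor-like protein typical of microglia, stood at 861 and 1034 against 2486, 2639 and 3890.4 CPM, and controls from 2803 to 6891 CPM (log2 difference -1.67 ± 0.46, adjusted p = 0.235). The end-stage mutants thus held the lowest Fcrls values of the 10 brainstem-labelled libraries. P2ry12, the receptor used to mark homeostatic microglia, stood at 5404 and 5679 against 6885, 8270.0 and 8958 CPM without overlap (adjusted p = 0.424), and Cx3cr1 at 1775 and 2067 against 2361, 2084 and 2304 CPM (adjusted p = 0.871). Tmem119, a microglial membrane protein, stood at 6028 and 11708 CPM against 12406, 10681 and 12535 CPM (adjusted p = 0.566), so that M1376 lay below and M1524 within the younger range. Aif1, the gene of the microglial stain IBA1, stood at 202 and 288 against 370.2, 421 and 366 CPM (log2 difference -0.65 ± 0.18, adjusted p = 0.219). In such bulk libraries, fewer cells of a type and less RNA per cell cannot be told apart.

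Among 28 genes of disease-associated microglia, the state described around amyloid and dying neurons, none passed, and the median log2 difference was 0.26 (-0.39 in controls). Values lay higher without overlap for 5 and lower for 5, shares near those over all genes (15.4% and 14.7%). At an unadjusted p under 0.05, 5 were higher and 3 lower (4.54% and 5.81% of all genes). Anxa5 was called higher by DESeq2 and none by limma-voom. Apoe, the lipid carrier that leads this state, stood at 2936 and 6096 CPM at end-stage and 1785, 698 and 1214 CPM at 2 months. Its log2 difference was 1.87 ± 0.65 (adjusted p = 0.351), and controls ranged from 182 to 1775 CPM. Both end-stage mutants lay above the other 8 brainstem-labelled libraries. Anxa5, which binds phosphatidylserine, stood at 26.1 and 31.9 against 17.9, 15.3 and 14.5 CPM, and Igf1, a growth factor, at 0.666 and 1.35 against 0.0731, 0.0491 and 0.0798 CPM, near the limit of detection at 2 months. On the lower side were Cd68, a lysosomal glycoprotein, at 1131 and 1251 against 1830.2, 2095 and 1515 CPM, and Ctsl, a cathepsin, at 885 and 1567 against 1873, 1714 and 1906 CPM. Spp1, a secreted phosphoprotein, stood at 9.43 and 237 against 103, 16.4 and 36.7 CPM and Clec7a, a beta-glucan receptor, at 9.1 and 61.6 against 21.6, 16.8 and 13.9 CPM. In both, chosen after their values were seen, M1524 was highest and M1376 lowest of the 5. Fn1, the fibronectin gene of the 15 tested matrix genes, stood at 7.6 and 59.1 against 3, 1.38 and 0 CPM (log2 difference 4.49 ± 1.14, adjusted p = 0.209), and no matrix gene passed.

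The lysosome list had 27 tested genes, none past the test (Lipa lower by DESeq2), 9 lower and 3 higher without overlap, and a median of -0.08 (-0.25 in controls). Beside each list of this paragraph, 14.7% of all genes lay lower and 15.4% higher without overlap. Lipa, the acid lipase, stood at 97.7 and 123 against 173, 192 and 188 CPM (log2 difference -0.74 ± 0.17, adjusted p = 0.116) and Hexa, a hexosaminidase subunit, at 856 and 1399 against 1935, 1627 and 1812 CPM (adjusted p = 0.286). Scarb2, a lysosomal membrane receptor, stood at 219 and 259.7 against 320.0, 293 and 309 CPM. Of 14 Fc and TAM receptor genes, 4 lay lower and 2 higher without overlap, and DESeq2 called Cd300a lower. Cd300a, an inhibitory receptor, stood at 266 and 275 against 401, 557 and 433 CPM (adjusted p = 0.183), and Fcer1g, the shared gamma chain, at 780.2 and 928 against 1151, 1559.9 and 1151 CPM. Fcgr3, a low-affinity Fc receptor, stood at 2211 and 1924 against 2847, 3035 and 2773 CPM. Of 15 TGF-beta pathway genes 4 lay lower without overlap, with a median of -0.21, or -0.05 with 1 gene at 0 in a stage set to its bound. They included Nrros, which presents latent TGF-beta on microglia, at 337 and 463 against 588, 736 and 608 CPM, and Tgfb1 at 298 and 319 against 473, 351 and 448 CPM. Of 23 genes of lipid and cholesterol handling 3 lay higher and 3 lower without overlap, shares near those over all genes, with a median of 0. At an unadjusted p under 0.05, 3 were higher and 2 lower (4.54% and 5.81% of all genes). Lpcat3, a phospholipid-remodelling enzyme, stood at 297 and 304 against 397, 435 and 446 CPM (adjusted p = 0.264). Plin2, a lipid droplet coat protein, stood at 34.6 and 32.2 against 45.3, 49.5 and 44.9 CPM, also without overlap. None of these lists had a member that passed.

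Among 24 cell cycle genes none passed, and the median log2 difference was -0.60, against 0.58 in controls. Values lay lower without overlap for 7 (14.7% of all genes did) and higher for 2 (15.4%). At an unadjusted p under 0.05, 3 were lower and 1 higher (5.81% and 4.54% of all genes). DESeq2 called Cdk1 lower and limma-voom none. Cdk1, the mitotic kinase, stood at 1.5 and 4.12 against 8.63, 8.25 and 7.42 CPM (log2 difference -1.53 ± 0.42, adjusted p = 0.22) and Ccnb2, a mitotic cyclin, at 0.277 and 1.73 against 3.51, 2.16 and 4.31 CPM. Ube2c, an enzyme of the anaphase-promoting complex pathway, was a low transcript at 0.111 and 0.705 against 2.63, 0.983 and 2.32 CPM. Mcm4, a subunit of the replicative helicase, lay higher at 18 and 22 against 11.8, 9.73 and 11.9 CPM. Cdkn1a, the cell cycle inhibitor p21 and a member of the senescence list, stood at 6.44 and 15.8 against 31.2, 24.3 and 34.8 CPM without overlap (log2 difference -1.43 ± 0.39, adjusted p = 0.204).

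**Figure D3:**
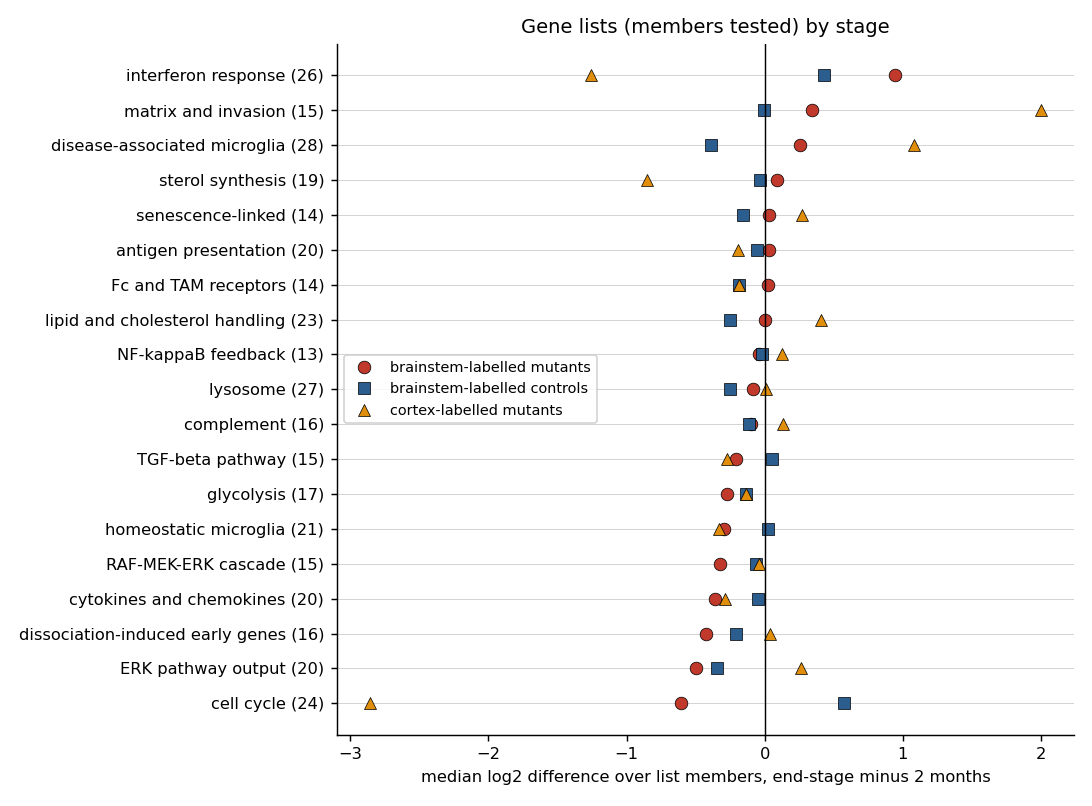
Median log2 difference between stages over the tested members of each function list (number in brackets) in brainstem-labelled mutants, brainstem-labelled controls and cortex-labelled mutants. The interferon list lies highest (0.94) and the cell cycle list lowest (-0.60) in brainstem-labelled mutants, and both are far lower in cortex-labelled mutants (-1.26 and -2.86).

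The 26 interferon-response genes had a median log2 difference of 0.94 (0.43 in controls), none passed by edgeR, DESeq2 or limma-voom, and 3 lay higher without overlap, a smaller share than the 15.4% over all genes. The same number was higher at an unadjusted p under 0.05 (4.54% of all genes). Mx1, an antiviral GTPase, stood at 12.4 and 42.5 against 10.5, 2.65 and 5.43 CPM (log2 difference 2.16 ± 0.74, adjusted p = 0.343) and Stat2, a signal transducer of type I interferon, at 61.2 and 91.7 against 53.7, 27.1 and 46.1 CPM (adjusted p = 0.464). Summed over the list, the libraries held 817 and 2359 CPM at end-stage and 1487, 436 and 789 CPM at 2 months. M1524 was thus highest of all 5 and M1376 within the younger range. Oas3, a sensor of double-stranded RNA, shows the split at single-gene level, at 0.555 and 14.7 against 1.39, 0.688 and 1.36 CPM. Its log2 difference of 2.75 ± 1.15 (adjusted p = 0.436) turned to -1.01 without M1524.

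The 2 end-stage mutants differed from each other in the same direction across whole lists. All 26 interferon-response genes were higher in M1524 than in M1376, with a median difference of 1.93 on the log2(CPM + 1) scale, and all 26 were higher in M1524 in the cortex-labelled libraries too (1.91). All 17 glycolysis genes were also higher in M1524 in both regions, with medians of 0.75 and 0.77. Gapdh, a glycolytic enzyme, stood at 398 and 694 against 785, 1109.6 and 896 CPM in the brainstem-labelled libraries, so that M1376 was lowest. In disease-associated microglia genes, 24 of 28 were higher in M1524 (median 0.55), beside 17 of 28 in the cortex-labelled libraries (0.13). Over all genes tested the median was 0 and 113 genes were more than 4-fold higher in M1524 and 21 more than 4-fold lower. Among single genes, Cxcl13, a B-cell attracting chemokine, stood at 2.16 and 405 CPM, beside 8.04, 0.54 and 13.2 CPM at 2 months. C4b, a complement component, stood at 27.7 and 428 against 38.5, 5.75 and 30.4 CPM and Ms4a4c, a monocyte marker, at 5.77 and 48.4 against 14, 3.68 and 6.79 CPM. For these 3 genes only M1524 stood clear of the younger mutants. With 1 library per mouse and region these differences have no replicate check.

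**Figure D4:**
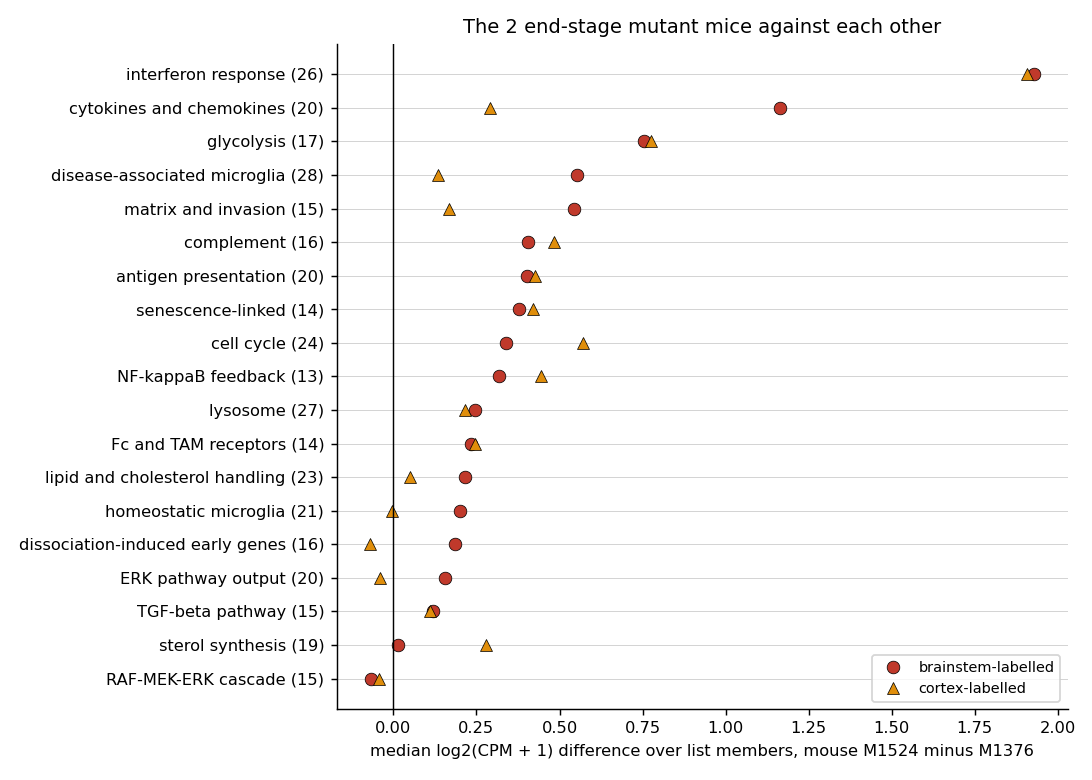
Median difference in log2(CPM + 1) between end-stage mutant mice M1524 and M1376 over the tested members of each function list, in their brainstem-labelled and cortex-labelled libraries. The interferon list lies farthest to the right in both regions, near 1.93, and the RAF-MEK-ERK list near 0.

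Among cytokines and chemokines (20 tested, median -0.36) and antigen presentation genes (20 tested, median 0.03) none passed, and DESeq2 called Nlrc5 alone. Nlrc5, the transactivator of MHC class I genes, stood at 5.44 and 17.9 against 1.9, 1.72 and 1.04 CPM (log2 difference 2.90 ± 0.72, adjusted p = 0.183), with both end-stage values above. Cd86, a costimulatory ligand, lay lower at 185 and 256 against 291, 287 and 280.1 CPM. Osm, a cytokine of the interleukin-6 family, stood at 19.9 and 26.3 against 32.3, 32 and 27.5 CPM. Of 17 glycolysis genes 4 lay lower without overlap (14.7% of all genes did), among them Pgam1, a phosphoglycerate mutase, at 34.7 and 50.4 against 57.7, 70.4 and 64.8 CPM. Of 13 NF-kappaB feedback genes and of 16 complement genes 2 each lay lower without overlap, shares near the 14.7% over all genes. They included C1qa, a subunit of the initiator C1q, at 5898 and 8129.6 against 8609.8, 10204 and 8598 CPM. Of 19 sterol synthesis genes 4 lay higher without overlap (15.4% of all genes did), with a median of 0.09. Lss, which makes lanosterol, stood at 11.2 and 10.9 against 6.73, 5.9 and 9.5 CPM, and Fdft1, the squalene synthase, at 19.6 and 18 against 12.7, 15.9 and 11.3 CPM.

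Markers of other cells are given as sums per library in the order end-stage, then 2 months. The 13 neuronal genes summed to 12.3 and 13.6 against 3.44, 3.83 and 1.12 CPM. Of 10 tested, 6 lay higher without overlap (15.4% of all genes did), with none past the test by edgeR, DESeq2 or limma-voom. Among them Snap25, a synaptic protein, stood at 6.44 and 3.14 against 1.83, 1.67 and 0 CPM. Controls showed 16.3 and 9.18 against 5.65, 3.68 and 5.96 CPM. Endothelial and pericyte genes summed to 73.3 and 78.7 against 119.9, 111 and 121 CPM, with Cldn5, Tek, Esam, Rgs5 and Vtn at 0 in all 5. Pecam1, an adhesion molecule of endothelium and of leukocytes, made up most of this sum, at 61 and 51.1 against 93.1, 104 and 115 CPM, and the controls held 39.1 to 62 CPM. Genes of border-associated macrophages summed to 5.6 and 38.1 against 31.3, 11.4 and 10.1 CPM and those of monocytes to 24.4 and 114 against 53.6, 28 and 40.2 CPM, with the stages overlapping. Neutrophil genes summed to 385 and 749.6 against 655, 629 and 831 CPM, nearly all from Csf3r, a growth factor receptor gene of granulocytes, while Retnlg, Ly6g and Mmp8 were at 0 in all 5. B and plasma cell genes summed to 489 and 580.0 against 831, 447 and 1225 CPM, mostly from the immunoglobulin gene Ighm, with Ms4a1, Jchain and Mzb1 at 0 in all 5. Of 4 tested members of this list 2 were lower at an unadjusted p under 0.05 (5.81% of all genes), and the median log2 difference was -0.47. T and NK cell genes summed to 19.5 and 28.6 against 16.6, 60 and 79 CPM, mostly from Klrd1, a receptor chain of NK cells, with Cd3g, Cd4, Cd8a, Trac, Nkg7 and Ncr1 at 0 in all 5. M2621 and M2624 stood higher than the other 3 libraries for the T and NK list, and for the neutrophil and B cell lists the stages overlapped. Astrocyte genes summed to 742 and 274 against 1199, 708 and 193 CPM, mostly from Slc1a3, a glutamate transporter gene. Gfap, the astrocyte filament gene, stood at 0.61 and 1.46 against 0, 0.0983 and 0 CPM and was called higher by DESeq2 and not by edgeR (adjusted p = 0.161). Genes of oligodendrocytes summed to 173 and 249 against 225, 173 and 249 CPM and those of their precursors to 3.27 and 2.66 against 1.54, 0.442 and 0.24 CPM. Gpr17, Neu4 and Cldn11, of oligodendrocytes and their precursors, were at 0 in all 5. Neuronal sums lay higher at end-stage without overlap in both genotypes, and the part of other cells in the results above was not tested.

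In brainstem-labelled controls (2 end-stage against 3 mice at 2 months) edgeR called 0 genes (0%), DESeq2 55 and limma-voom 0 (edgeR called 1 without M1521), while 1383 genes (8.33%) had an unadjusted p under 0.05. The difference between the 2 genotypes' stage differences was tested as an interaction. It passed for 1 gene (0.00603%), Jun, with -1.82 ± 0.26 SE (adjusted p = 0.0228). The stage difference of Jun was -1.28 ± 0.19 in mutants and 0.54 ± 0.18 in controls. This call was lost without M1375, M1376, M1521, M1524, M2618, M2621 or M2624, each left out in turn, when only mice with Xist were used, and when only 2-month mice of 1 genotype under both readings were used. It was kept by DESeq2, by limma-voom and with sex as a covariate. For Il15ra the 2 stage differences were 1.95 ± 0.30 and -0.18 ± 0.30, and the interaction was 2.13 ± 0.43 (adjusted p = 0.308). For Neat1 they were 2.12 ± 0.31 and 1.77 ± 0.31, with an interaction of 0.35 ± 0.45 (adjusted p = 1), and for Fam110a -1.44 ± 0.17 and -0.24 ± 0.17, with -1.19 ± 0.23 (adjusted p = 0.308).

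The cortex-labelled libraries of the same 5 mutant mice gave 319 calls between stages (1.92%), 121 higher (0.729%) and 198 lower (1.19%). The count was 94 without M1376, 141 without M2621 and 173 without M2624. Of the 8 genes called in the brainstem-labelled libraries, Neat1, Firre, Dtx3 and Fam110a were called in the same direction there, which is 50% of the 8 and 1.25% of the 319. The libraries share mice. Il15ra stood at 107 and 50.2 against 29.7, 42.8 and 37.3 CPM there (adjusted p = 0.0611), Jun at 62.8 and 63.4 against 82, 90.3 and 91.5 CPM (adjusted p = 0.226) and Coro2a at 34 and 34.5 against 31, 21.6 and 38.5 CPM with overlap. Pygl had its end-stage values on the other side, at 8.01 and 11.1 against 5.38, 6.66 and 6.95 CPM.

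Whether stage differences differed between regions was tested as an interaction, brainstem-labelled minus cortex-labelled. It passed for 6 genes (0.0362%). Abcg1, a cholesterol exporter, stood at 163 and 103 against 111, 97.9 and 122 CPM in the brainstem-labelled libraries and at 161 and 176 against 25, 15.7 and 19 CPM in the cortex-labelled ones (interaction -2.81 ± 0.35, adjusted p = 0.00386). Tgfbi, a matrix protein, stood at 52.1 and 77.8 against 83.4, 62.9 and 59.6 CPM and at 244 and 297 against 67.4, 57 and 78.4 CPM (-2.08 ± 0.32). Timp2, an inhibitor of matrix proteases, stood at 818 and 826 against 870.0, 875 and 769 CPM and at 1242 and 1265 against 589, 594 and 537 CPM (-1.16 ± 0.20). For all 3 genes the stages overlapped in the brainstem-labelled libraries and lay apart in the cortex-labelled ones. Atf3, a stress-induced transcription factor, stood at 6.05 and 8.07 against 10.6, 6.34 and 8.78 CPM and at 123 and 78.3 against 20.8, 23.6 and 21.9 CPM (-2.46 ± 0.43). All 4 were called between stages in the cortex-labelled libraries and stood at adjusted p = 0.754 or above in the brainstem-labelled ones. Nid2, a basement membrane protein, stood at 51.2 and 41.3 against 69, 71.6 and 69.5 CPM and at 0.818 and 1.04 against 17.8, 31.5 and 27.3 CPM (4.18 ± 0.60). Gimap9, a GTPase of lymphoid cells, stood at 23.3 and 18 against 26.5, 35.2 and 23.2 CPM and at 0.763 and 1.69 against 8, 14.4 and 10.1 CPM (2.70 ± 0.47). Both were called lower at end-stage in the cortex-labelled libraries, and in the brainstem-labelled ones they stood at adjusted p = 0.607 and 0.643. The count was 1 without M1376, 0 without M1524, 2 without M2617 and 1 without M2621.

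Because both libraries of a mouse come from 1 animal, the interaction was also fitted with mouse as replicate block. It then passed for 58 genes (0.35%), 38 with the brainstem-labelled difference above the cortex-labelled one (0.229%) and 20 below (0.121%), and kept all 6. The blocked fit was not repeated with mice left out or with the genotypes of the sample records. Among the 38 were 7 of 26 interferon-response genes: Ifit1, Ifit2, Ifit3, Ifit3b, Mx2, Oas3 and Oasl2. All 26 had a positive interaction, with a median of 2.83 against 0.03 over all genes. Ifit3, an antiviral effector, stood at 67.9 and 179.6 against 88.1, 15.3 and 42.1 CPM in the brainstem-labelled libraries and at 45.3 and 216 against 327, 287 and 323 CPM in the cortex-labelled ones (paired interaction 3.15 ± 0.50, adjusted p = 0.0189). The list summed to 1.22 and 1.41 times as much in the cortex-labelled as in the brainstem-labelled library of the end-stage mice, and to 3.21, 12.7 and 6.21 times as much in the 2-month mice. Sqle and Fdft1, enzymes of sterol synthesis, also passed in this direction, with 18 of 19 members of that list positive, and so did Stmn1, with 23 of 24 cell cycle members positive. The sums of the 2 lists had cortex-labelled to brainstem-labelled ratios of 1.24 and 1.31 and of 0.868 and 1 at end-stage, and of 2.03, 2.82 and 2.25 and of 1.93, 3.71 and 2.81 at 2 months.

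On the other side, with the cortex-labelled difference higher, stood Apoe, Ccl6 and Timp2 of the disease-associated list, of which 25 of 28 members had a negative interaction. Apoe reached 95373 and 102516 CPM in the cortex-labelled end-stage libraries against 6182, 1234 and 3273 CPM at 2 months, 32.5 and 16.8 times the brainstem-labelled level of the same mice at end-stage and 3.46, 1.77 and 2.7 times at 2 months (paired interaction -3.20 ± 0.39, adjusted p = 0.0053). Without the block its adjusted p was 0.666. Fcrls also passed on this side (-1.52 ± 0.27, adjusted p = 0.0312), with 639 and 647 against 405, 763 and 1100.4 CPM in the cortex-labelled libraries. Pygl (-3.29 ± 0.56, adjusted p = 0.0279) and, on the first side, Coro2a (1.83 ± 0.35, adjusted p = 0.0447) were the 2 of the 8 brainstem-labelled calls that passed here.

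**Figure D5:**
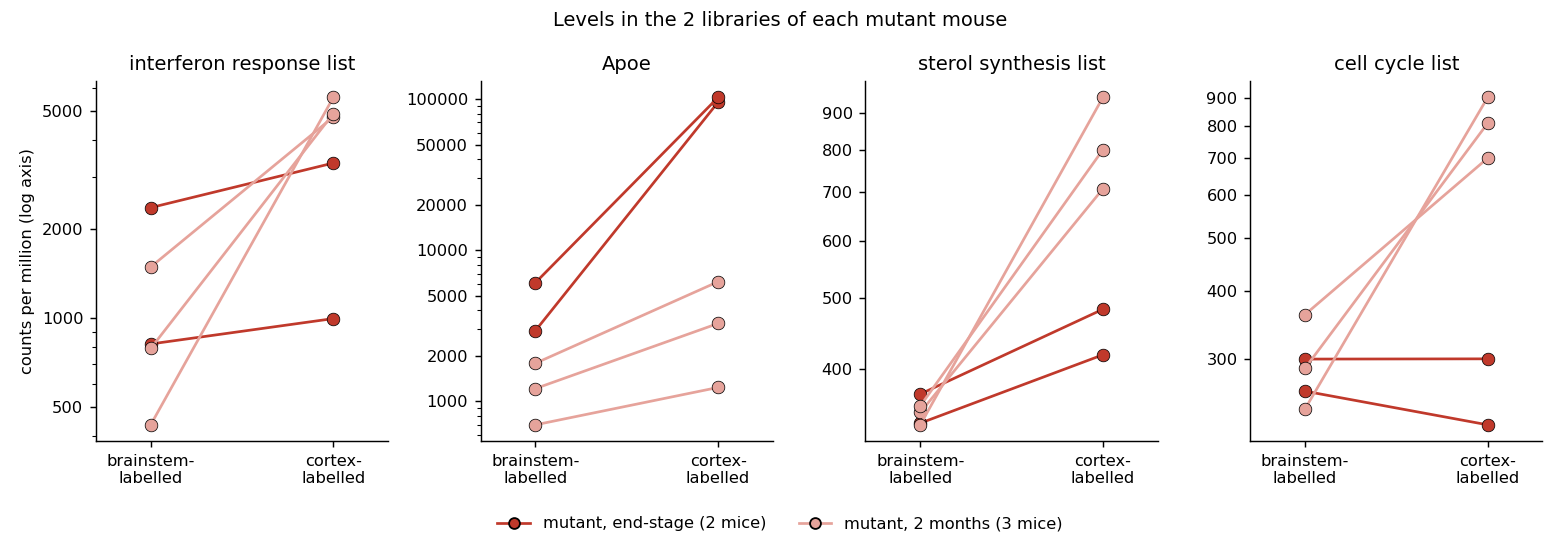
Summed CPM of 3 gene lists and of Apoe (log axes) in the brainstem-labelled and cortex-labelled library of each mutant mouse, joined by a line. The 2-month mice climb steeply from the brainstem-labelled to the cortex-labelled library for interferon, sterol and cell cycle genes and the end-stage mice little or not at all, while for Apoe the end-stage mice climb most.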

How the data were processed

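Microglia libraries were sequenced in bulk after amplification with the SMART-Seq v4 kit, per the labels' protocols. The authors deposited 1 table of read counts per gene, raw and not normalized, as its whole numbers with unequal totals show. The submitters' processing notes name FastQC, Subread, edgeR and the mm10 build, with no versions or roles. Counts were tested with edgeR 4.0.16 (R 4.3.3, limma 3.58.1) by the robust quasi-likelihood test with TMM factors and filterByExpr. The fit used all 20 libraries in 8 groups of region, genotype and stage, with Benjamini-Hochberg adjustment over 16595 genes. CPM values are counts per 1000000 on TMM-scaled library sizes, and SEs come from the fitted log2 difference and its F statistic. Gene names and positions come from GENCODE M21 (GRCm38), which matched 55394 of 55487 identifiers, and the 93 unmatched ones held 0.00123% of counts and entered no named result. The 2 libraries of a mouse come from the same animal, and their deviations from the group means correlated at 0.139 to 0.407. The main fit did not model this pairing and took the libraries as independent.

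The libraries, gene lists and motifs were chosen with earlier results of these data known. Named genes were those called without overlap of stages at a mean log2 CPM of 1 or more, filled to 10 in each direction by p. To these were added up to 4 members of each function list and 2 of each marker list by p, a few fixed genes, and up to 5 genes called in each interaction. Atf3, Spp1, Clec7a, Ifit3, Csf3r and Slc1a3 were named outside this rule, after their values were seen. No label says whether the mice of a group shared a litter, so p-values measure the spread between these samples. Alternatives were RLE factors, DESeq2 1.42.0, limma-voom, other filters, only the groups compared, genotype by sample record, each mouse left out and mouse as replicate block. The fits with sex as a covariate and with only Xist-positive mice were added after seeing the data. The fitting was tested on simulated data. Values of a few list members are not reported here.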

Additional observations from a re-analysis of the deposited data

Results flagged for a closer look

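In brainstem-labelled libraries the stage difference of Jun differed between mutants and controls by the interaction test, at -1.82 on the log2 scale (lower at end-stage in 2 of 2 mutant libraries and higher in 2 of 2 control libraries). In mutants the stage difference differed between brainstem-labelled and cortex-labelled libraries by the same kind of test for 6 genes. The interaction, brainstem-labelled minus cortex-labelled, was -2.81 for Abcg1, -2.46 for Atf3, -2.08 for Tgfbi and -1.16 for Timp2, where the cortex-labelled libraries held more at end-stage. It was 4.18 for Nid2 and 2.70 for Gimap9, where the cortex-labelled libraries held less at end-stage.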

How the results depend on the processing

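The 8 calls of the main comparison became 196 with DESeq2, 19 with limma-voom, 423 with no low-count filter, 4 with only the groups compared, 32 with sex as a covariate, 2 with only mice with Xist, and 1 to 13 with 1 mouse left out. The 0 calls in controls became 55 with DESeq2, 270 with no filter, 1 with only the groups compared, 2 by sample record, 4 with the 2-month mice of 1 genotype under both readings, 2 with only mice with Xist, and 0 to 1 with 1 mouse left out (1 without M1521). The 319 calls in cortex-labelled mutants became 776 with DESeq2, 590 with limma-voom, 963 with no filter, 211 with only the groups compared, 24 with mice of 1 genotype under both readings, 153 with only mice with Xist, and 94 to 265 with 1 mouse left out (lowest without M1376, 141 without M2621, 173 without M2624).

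The 1 call for genotype by stage became 14 with DESeq2, 190 with no filter, 4 by sample record, 2 with sex or with only mice with Xist, and 0 to 2 with 1 mouse left out. The 6 calls for region by stage became 63 with DESeq2, 3 with limma-voom, 284 with no filter, 2 with only the groups compared, 1 by sample record, 0 with mice of 1 genotype under both readings, 10 with sex, 1 with only mice with Xist, 58 with mouse as replicate block, and 0 to 4 with 1 mouse left out. Fewer samples enter the fits on subsets, some of which leave 1 mouse in a stage. The cause of the other shifts was not tested.

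Single genes turned sign in few settings. With 1 mouse left out the log2 difference ran from -1.01 to 3.72 for Oas3, -1.69 to 5.87 for Cxcl13, -0.48 to 2.60 for Ms4a4c, -2.45 to 2.24 for Spp1 and -0.93 to 1.84 for Clec7a, each lowest without M1524. It ran from -0.0030 to 0.64 for Braf (lowest without M1376) and from -0.97 to 0.0020 for Tmem119 (highest without M1376), and was 0.013 for Cx3cr1 with sex as a covariate. The genotype by stage interaction of Neat1 ran from -0.22 (without M1376) to 0.76 and was -0.092 with only mice with Xist. With 2 against 3 mice an exact permutation test cannot reach 0.05, and at 12.9e6 to 21.2e6 counts per library, transcripts near 0.2 CPM were not measurable.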
